A study of Mus musculus with 4 samples.

Results

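Acetylation of histone H3 at lysine 27 (H3K27ac) was compared between embryonic stem (ES) cells of 2 inbred mouse strains, non-obese diabetic (NOD) and C57BL/6 (B6). ES cells of both strains were isolated from embryos and grown in 2i, a medium with inhibitors of the kinases MEK and GSK3. The paper states that its further characterization focused on male ES cell lines. How many lines or passages a library drew on is not given in the sources used here. Each strain was represented by 1 H3K27ac library, and each deposited list held the regions enriched in 1 strain over the library of the other. All autosomal regions of both lists were taken, 11338 of the 31315 regions deposited for the 2 strains and for both marks measured, H3K27ac and H3K4me3. The NOD list held 5908 of these regions and the B6 list 5430. The strain is thus the same as the library, and without replicates a difference between strains cannot be told apart from a difference between libraries. No test was run, and all values below describe these libraries. The labels give 25000000 to 30000000 single-end reads per library, and the H3K27ac lists give no tag counts, so the depth behind a single score is unknown.

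H3K27ac is placed by the acetyltransferases p300 and CBP at active enhancers and promoters, and it separates active from poised enhancers. Where such elements lie close together they are often stitched into one super enhancer, and in ES cells these domains are known to lie near genes of cell identity. A gene can also collect many separate regions, within its introns or in the intergenic sequence around it. Each region in the lists was assigned by the authors to the gene with the nearest transcription start site (TSS), which need not be the gene it acts on. The regions named 7550 genes in all, of which 4587 were in the NOD list, 4296 in the B6 list and 1333 in both.

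The score of a region is the value the authors deposited for it on a scale that the sources used here do not state. Scores of a gene's regions were added up, counting those below 0 as 0. A gene was called high at a summed score of at least 200, and a gene with at least 5 regions was said to have several regions. In the NOD list 209 genes were high, 2.77% of all genes, and 31 genes had several regions, 0.411% of all genes. In the B6 list 75 genes were high, 0.993% of all genes, and 20 genes had several regions, 0.265% of all genes. No gene was high in both lists, and a single gene, Ptprg, had several regions in both. These percentages follow from the thresholds that chose the genes and are given as a description. On the NOD side Cpeb2 lay just inside the threshold at 200.2 and Gm13090 just outside at 199.08, and on the B6 side Eps8 lay inside at 200.7 and Skap2 outside at 199.86.

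A set of 5 sequences shows DNA at the highest region of some leading genes. Apart from that of Gm15698, at 658.6 the highest of the B6 list, these are not the highest regions of the lists. Those of Fut9 and 1700030C10Rik scored 137.5 and 138.8. Wider regions with higher scores, such as those of Gm14296 at 1045.4 and Smarca5-ps at 1024.4, were left out. They are 120 bases at the centre of the highest-scoring region of a gene, read from the plus strand of GRCm38 (mm10), for genes that led a list or both lists and whose region was no wider than 2318 bp, since the centre says little of a domain stitched from several peaks. Capitals mark CG dinucleotides, and a sequence without capitals holds none.
Zfp970, NOD, chr2:177230406-177230525: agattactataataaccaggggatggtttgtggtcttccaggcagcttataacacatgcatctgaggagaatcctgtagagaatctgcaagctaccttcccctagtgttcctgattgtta
Magi1, B6, chr6:93605794-93605913: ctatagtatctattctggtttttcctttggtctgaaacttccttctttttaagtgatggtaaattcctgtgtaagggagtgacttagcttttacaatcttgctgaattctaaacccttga
Gm15698, B6, chr11:88968076-88968195: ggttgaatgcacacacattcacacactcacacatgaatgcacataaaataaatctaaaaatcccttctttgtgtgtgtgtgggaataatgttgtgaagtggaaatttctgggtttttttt
Fut9, NOD, chr4:25816364-25816483: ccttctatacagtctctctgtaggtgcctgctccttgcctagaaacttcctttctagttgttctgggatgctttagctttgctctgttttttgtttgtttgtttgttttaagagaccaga
1700030C10Rik, NOD, chr12:19669207-19669326: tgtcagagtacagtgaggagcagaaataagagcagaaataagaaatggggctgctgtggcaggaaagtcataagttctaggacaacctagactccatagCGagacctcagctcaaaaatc
The centre of the Magi1 region lay in an RLTR13B2 element, a long terminal repeat of the ERVK family of endogenous retroviruses. Its 32-base words occurred a median of 21 times in the genome, and those of the Zfp970 centre 15 times. The centres at Gm15698, Fut9 and 1700030C10Rik were single copy by the same measure. That of 1700030C10Rik still lay in a repeat, a PB1D7 element of the SINE class, and 4 of the 8 NOD centres of this gene were mostly multicopy. Most reads from a sequence with many copies cannot be placed uniquely, and how the authors treated such reads is not given in the sources used here.

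Promoter sequence is shown where the promoter of 1 of the 10 highest genes of a strain lay inside the gene's own region. Of the 10 genes, 6 of NOD and 8 of B6 had an entry among the RefSeq promoters of GRCm38.p6. The promoter lay inside a region of the gene for 3 genes in each strain, and where a gene had more than 1 such window, that with the most CG is shown. The windows run from 250 bases before to 50 after the start on the strand of the gene, again with CG in capitals.
Crxos, NOD, chr7:15895874-15896173, plus strand: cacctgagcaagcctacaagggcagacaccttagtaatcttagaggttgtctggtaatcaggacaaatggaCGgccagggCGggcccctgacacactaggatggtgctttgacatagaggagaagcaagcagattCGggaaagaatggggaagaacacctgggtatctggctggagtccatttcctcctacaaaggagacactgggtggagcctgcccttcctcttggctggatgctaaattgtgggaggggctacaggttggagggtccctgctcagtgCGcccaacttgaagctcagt
Gm14403, NOD, chr2:177497976-177498275, plus strand: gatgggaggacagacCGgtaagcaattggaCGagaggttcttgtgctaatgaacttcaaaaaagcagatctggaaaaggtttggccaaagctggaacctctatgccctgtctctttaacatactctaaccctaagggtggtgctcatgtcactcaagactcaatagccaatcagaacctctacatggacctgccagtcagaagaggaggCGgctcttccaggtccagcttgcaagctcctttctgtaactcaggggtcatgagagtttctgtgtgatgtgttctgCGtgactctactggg
2410141K09Rik, NOD, chr13:66441069-66441368, minus strand: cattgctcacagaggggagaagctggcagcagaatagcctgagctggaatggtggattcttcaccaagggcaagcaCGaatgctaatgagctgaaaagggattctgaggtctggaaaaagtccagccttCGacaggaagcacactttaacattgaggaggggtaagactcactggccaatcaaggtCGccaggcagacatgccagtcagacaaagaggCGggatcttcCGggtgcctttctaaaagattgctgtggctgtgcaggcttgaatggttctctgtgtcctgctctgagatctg
Magi1, B6, chr6:93913641-93913940, minus strand: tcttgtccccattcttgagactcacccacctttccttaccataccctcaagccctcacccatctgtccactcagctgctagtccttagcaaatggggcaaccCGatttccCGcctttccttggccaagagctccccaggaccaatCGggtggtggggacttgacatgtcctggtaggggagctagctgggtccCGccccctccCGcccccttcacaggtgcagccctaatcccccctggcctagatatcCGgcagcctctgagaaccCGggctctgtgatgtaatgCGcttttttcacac
Dhrs7, B6, chr12:72664779-72665078, minus strand: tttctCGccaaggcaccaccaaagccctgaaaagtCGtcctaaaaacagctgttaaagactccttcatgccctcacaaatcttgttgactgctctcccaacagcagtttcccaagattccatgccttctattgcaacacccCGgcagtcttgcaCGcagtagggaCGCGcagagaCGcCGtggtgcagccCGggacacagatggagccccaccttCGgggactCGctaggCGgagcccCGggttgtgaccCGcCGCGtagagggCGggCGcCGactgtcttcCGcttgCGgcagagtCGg
Scaf4, B6, chr16:90284454-90284753, minus strand: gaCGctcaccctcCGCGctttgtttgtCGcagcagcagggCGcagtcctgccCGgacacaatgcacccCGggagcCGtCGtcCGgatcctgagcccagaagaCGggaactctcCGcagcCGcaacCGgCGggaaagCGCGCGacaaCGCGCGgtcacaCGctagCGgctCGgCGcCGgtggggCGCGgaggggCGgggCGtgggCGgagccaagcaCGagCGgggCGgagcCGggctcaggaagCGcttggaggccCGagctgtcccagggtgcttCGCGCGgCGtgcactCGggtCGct
These windows held 4 CG at Crxos, 4 at Gm14403, 5 at 2410141K09Rik, 8 at Magi1, 22 at Dhrs7 and 43 at Scaf4. Of the 32851 RefSeq promoter windows, 68.6% held at least 4, 62.0% at least 5, 48.6% at least 8, 23.1% at least 22 and 2.61% at least 43. The other windows inside these regions held 2 and 0 CG at Crxos, 7 at Magi1 and 41 at Scaf4. The windows shown thus ran from CG-poor at the 3 NOD genes to CG-rich at Scaf4.

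The plot of summed scores shows each gene by its values in both lists. Most genes had a low sum, with a median of 15.7 over genes of the NOD list and 15.4 over genes of the B6 list. The lists parted above the middle, as the 95th percentile was 188 in NOD and 111 in B6. The positive scores added up to 206217 for NOD, which was 1.47 times the 140406 reached by B6. High genes carried 37.4% of the NOD sum and 17.6% of the B6 sum. In NOD 370 genes carried 50% of the score, and in B6 this took 524 genes. The scale of the score is not stated, so the sums of both lists may not be comparable in size. With the B6 scores multiplied so that both lists added up to the same, 156 genes of the B6 list reached 200.

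**Figure D1:**
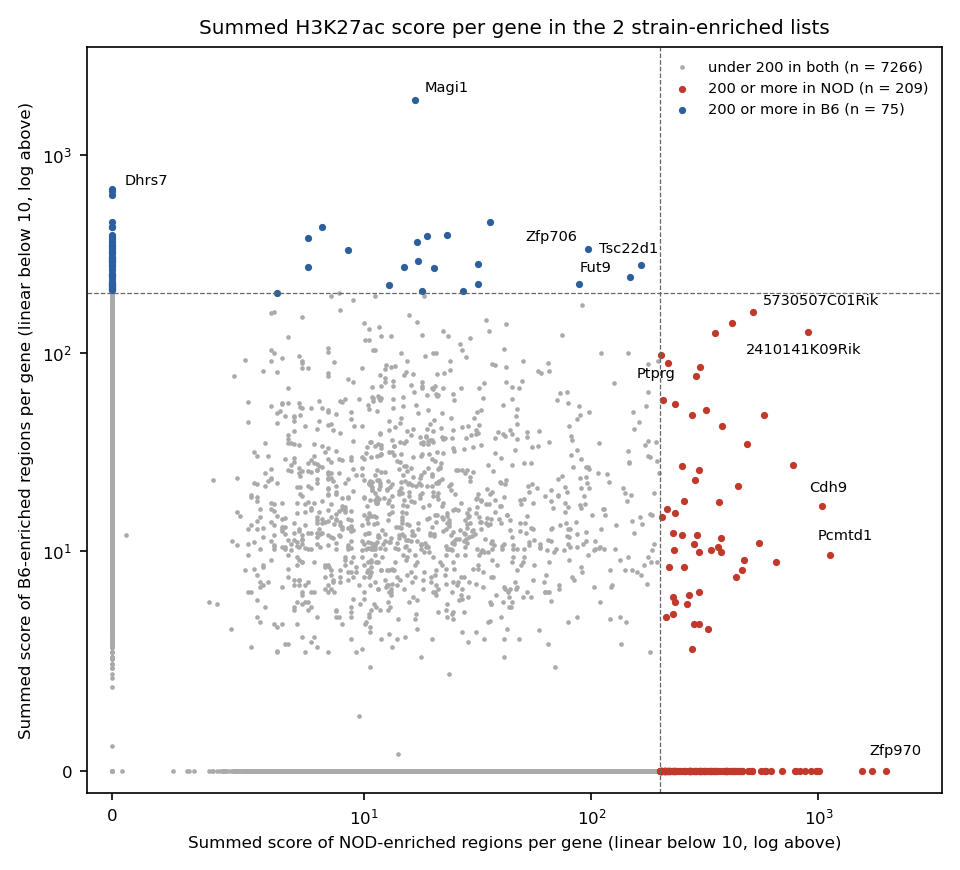
Summed H3K27ac score per gene in the NOD-enriched list (horizontal axis) and in the B6-enriched list (vertical axis), 1 point per gene, on axes that are linear below 10 and logarithmic above. The dashed lines mark 200, and no gene lies beyond both: 209 genes lie beyond the line in NOD (red) and 75 in B6 (blue).

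A high sum came mostly from 1 strong region. In NOD the highest region held a median of 93.1% of a high gene's sum, and in B6 it held 92.8%. These medians include 72 NOD and 35 B6 high genes with 1 region only, at which the share is 100% by construction. Among the other 137 NOD and 40 B6 high genes the median was 77.9% and 74.3%. A single region sufficed to reach 200 in 153 of the 209 NOD genes, and the other 56 reached it only as a sum. The highest region of a high gene was 5 kb or wider in 64.1% of NOD genes and 81.3% of B6 genes, against 9.14% and 9.10% of all regions. It was classed as a super enhancer in 204 of 209 NOD genes and 74 of 75 B6 genes, against 8.23% and 7.15% of all regions. That class rests on the same scoring as the choice of high genes, so these counts were largely set by the choice.

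The highest sum of all was at Zfp970, a zinc finger gene on chromosome 2, with 1990.2 over 8 NOD regions and none in the B6 list. Its regions scored from 20.3 to 835.3 and lay from 266.56 kb upstream of the start to 0.36 kb beyond it. The next neighbour, Gm14296, had 1723.9 over 5 NOD regions, led by a domain of 22830 bp with a score of 1045.4, the highest in either list. Gm14403 had 928.32 over 4 NOD regions, of which the strongest, at 499.5, covered its promoter shown above. Together these 3 genes held 4642.4 within a stretch of less than 1 Mb on chromosome 2. None of the 3 had a region in the B6 list. Zinc finger genes of such clusters are known for near-identical copies. At Zfp970, 7 of the 8 centres had under 50% single-copy words, as did all 5 at Gm14296 and 3 of the 4 at Gm14403. The gene to which each of these regions belongs is therefore uncertain.

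NOD also held 2 further groups of at least 3 high genes, both on chromosome 13. The first joined Zfp808, Gm3604 and Zfp935 with a summed score of 921.1. The second joined Gm10324, 2410141K09Rik and Uqcrb with 1582.1, and Uqcrb encodes a subunit of respiratory complex III. All 9 NOD centres of Gm10324 and 6 of the 9 of 2410141K09Rik were mostly multicopy. The gene to which those regions belong is thus uncertain as well. Of 156 Zfp genes with a region, 8 were high in NOD (5.13%) and 2 in B6 (1.28%), against 2.77% and 0.993% of all genes, so that the B6 share was near the background. Among the 8, Zfp975 reached 396.3 and Zfp935 335.1, with no B6 region at either. The B6 members were Zfp706 at 335.04 and Zfp383 at 250.5. Of 846 gene models named Gm or Rik, 36 were high in NOD (4.26%) and 4 in B6 (0.473%).

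Outside the groups of neighbouring high genes named above, the leading NOD genes were of mixed function. Smarca5-ps, a pseudogene of the chromatin remodeller Smarca5, had 1550.0 over 2 regions 24.79 and 49.62 kb upstream. The centre of 1 of these 2 regions was mostly multicopy. Pcmtd1, which encodes a protein with an isoaspartate methyltransferase domain, had 1122.83 over 16 regions, the largest number in the NOD list. No single Pcmtd1 region exceeded 161.2, and together they spanned both sides of the start, from 101.62 kb upstream to 1008.24 kb beyond it. Its only B6 region scored 9.84. Cdh9, a cadherin of cell adhesion, had 1035.58 over 7 NOD regions, of which a region in an MMERVK9C element 134.19 kb from the start held 688. The B6 list had 2 weak regions there, with a sum of 16.85.

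Several NOD sums were those of 1 or 2 wide domains. Crxos, a homeobox gene opposite Crx known from the preimplantation embryo, had 1 domain of 23947 bp with a score of 986 that covered 3 of its promoters. Slc35g1, a solute carrier, had 974.32, of which 869.9 fell in a domain of 27648 bp centred on an RLTR4_Mm element of the ERV1 family. The words at that centre occurred a median of 58 times in the genome. 5330413P13Rik had 1003.7 from 2 wide domains, and neither it nor Slc35g1 or Crxos had a B6 region.

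In B6 the gene that stood first by both measures was Magi1, a scaffold protein of tight junctions. It held 1882.72 over 20 regions, the largest number in either list, while its 2 NOD regions added up to 16.67. The highest Magi1 region, in the RLTR13B2 element shown above, scored 471.3 and held 25.0% of the sum. The rest was spread over introns and the intergenic sequence beyond the gene, with 8 further regions above 99. Without its highest region the B6 sum of Magi1 still exceeded that of every other gene of the list.

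The other leading B6 genes held far less. Dhrs7, a short-chain dehydrogenase, had 671.5, of which a domain of 24458 bp covering the promoter shown above held 603. Gm15698 had 658.6 from a single region of 697 bp, the highest score of the B6 list, 1.22 kb upstream of the start. Frmd4b, a FERM domain protein, had 623.38, mainly from domains of 311.1 and 290.6 on either side of its start. Hsd17b3, the enzyme that makes testosterone from androstenedione, had 456.88 over 4 regions. Acacb, the acetyl-CoA carboxylase that limits fatty acid oxidation, had 431.9 from 1 domain, as did Mfap3, a microfibril-associated protein. None of these 6 genes had a region in the NOD list.

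BC052688, Scaf4 and Sh3bp4 completed the first 10 of B6, and each also had NOD regions. BC052688 had 457.42 over 6 B6 regions and 35.9 in NOD. Scaf4, which binds the tail of RNA polymerase II, had 431.4 from a domain of 26206 bp in B6 and 8.33 in NOD. Sh3bp4, a regulator of endocytosis, had 395.2 in B6 and 23.2 in NOD. In each case the NOD value was under 10% of that in B6.

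**Figure D2:**
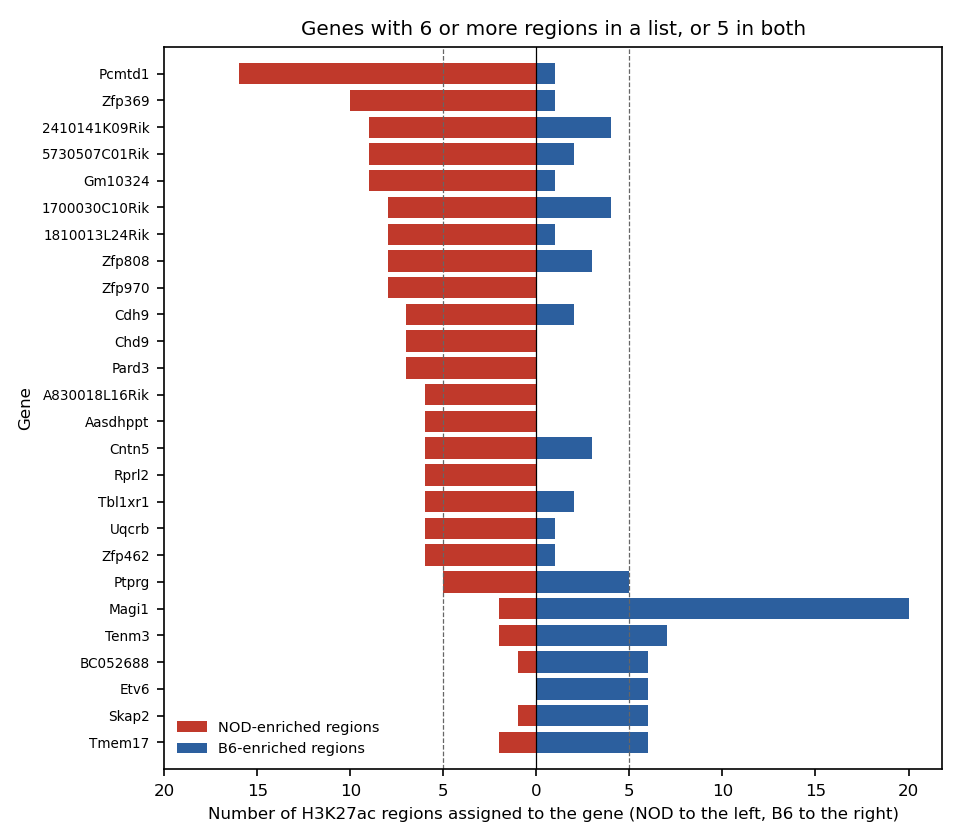
Number of H3K27ac regions per gene for the 25 genes with at least 6 regions in a list and for Ptprg, NOD regions to the left (red) and B6 regions to the right (blue). The dashed lines mark 5 regions. Pcmtd1 has 16 NOD regions and Magi1 20 B6 regions, and Ptprg alone reaches 5 on both sides.

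Genes with several regions were often high as well. Of the 31 NOD genes with several regions 24 were high (77.4%), against 4.56% of all genes of the NOD list, and of the 20 B6 genes 10 were (50.0%), against 1.75%. More regions add to the sum, so this overlap is partly built into both measures. Even so, the sum of a several-region gene was as low as 56.22, at Elovl6, an elongase of long-chain fatty acids, in NOD. Zfp369 had 10 NOD regions but a sum of only 182.18, and 8 of the 10 centres were mostly multicopy.

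Most genes with several regions in a list also appeared in the other. A region of the other strain was present at 19 of 31 NOD genes and at 12 of 20 B6 genes, against 29.1% and 31.0% of all genes of each list. These genes also had large surrounds. The stretch of chromosome nearest to a gene's start had a median of 448 kb for several-region genes of NOD and 346 kb for those of B6, against 76.1 and 77.3 kb for all genes of each list. The stretch was 1285 kb at Pcmtd1, 2598 kb at Cdh9 and 779 kb at Magi1. It was measured from curated RefSeq starts rather than those in the file, so a gene's regions can lie outside it. The Pcmtd1 and Cdh9 regions spanned 1112.9 and 1892.2 kb, less than the stretch. The B6 regions of Magi1 spanned 873.5 kb, more than the stretch. At Zfp369 the NOD regions spanned 341.1 kb against a stretch of 53.5 kb. The part of the size of the stretch in the number of regions was not tested.

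Some genes collected their regions in 1 strain alone. In NOD these were led by Zfp970, followed by Pard3, Chd9, Rprl2, A830018L16Rik and Aasdhppt. Pard3, a scaffold of the cell polarity complex, had 830.16 over 7 regions, including 1 over its first exon and a domain of 653.7 in an intron 35.87 kb from the start. Chd9, a chromodomain helicase, also had 7 regions, but none above 87.9 and a sum of 201.89. In B6 they included Etv6, Akr1d1, Rpia, Syndig1 and Foxp1. Etv6, a transcriptional repressor of the ETS family, had 299.81 over 6 regions, 3 of which scored from 87.4 to 102.3. Akr1d1, a reductase of bile acid and steroid metabolism, had 357.39 over 5 regions. Rpia, an isomerase of the pentose phosphate pathway, had 328.74, also over 5 regions. Foxp1, a forkhead repressor, had 5 regions and stayed under 200 at 187.53.

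**Figure D3:**
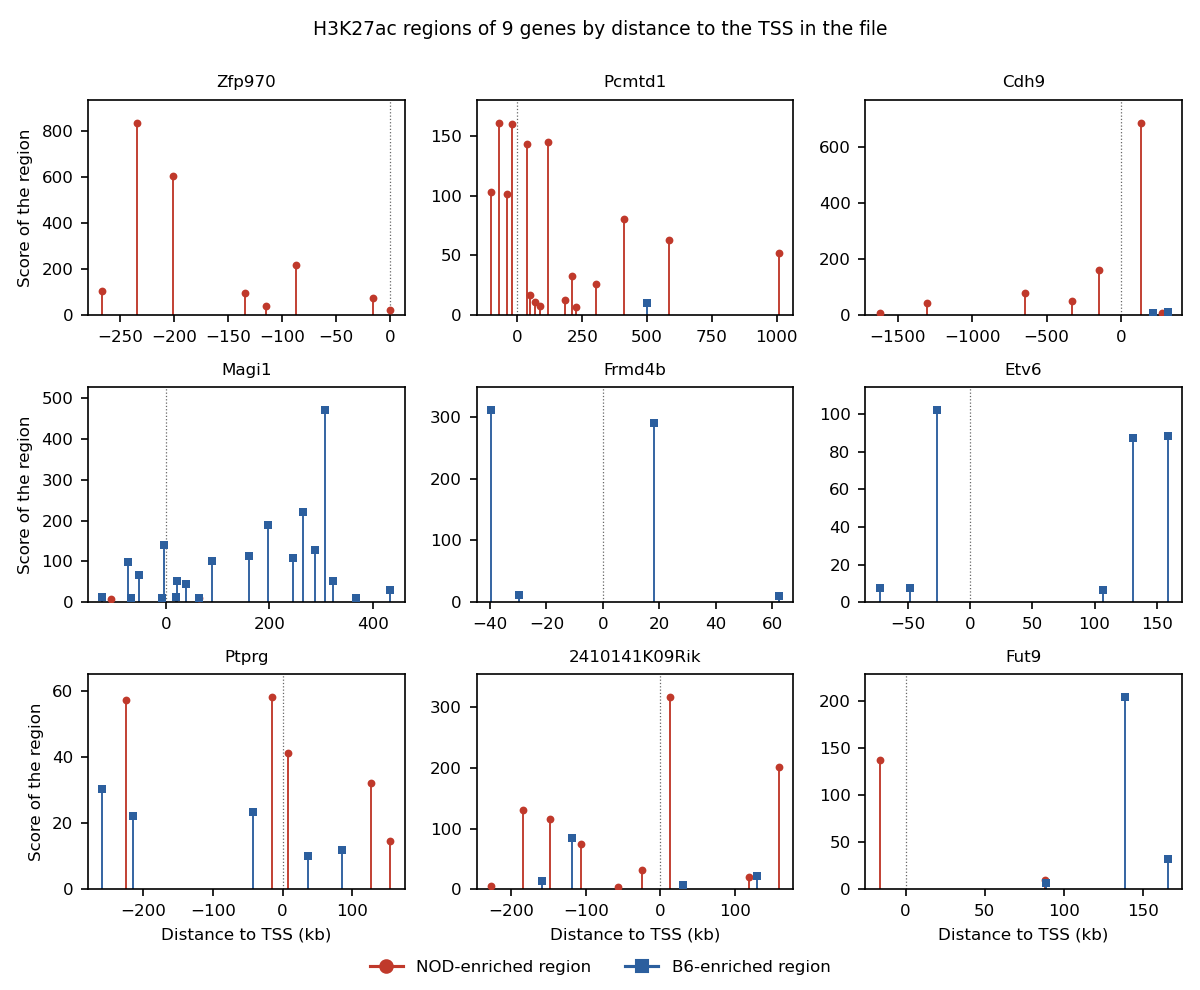
Score of each H3K27ac region against its distance to the TSS given in the file, in kb, for 9 genes, with NOD regions as red circles and B6 regions as blue squares. Scales differ between panels, and the dotted line marks the TSS. The 16 Pcmtd1 and 20 Magi1 regions are spread over long stretches on both sides of the start, whereas Zfp970 and Cdh9 are led by 1 or 2 regions.

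Genes that collected regions of both strains were few. At 50 or more in each list there were 35 genes, at 100 or more 6 genes, and at 200 or more none. Of the 35 genes, 25 had the larger sum in NOD. Each list holds regions higher in 1 strain than in the other, so regions of both lists would seldom overlap by construction. The nearest pair lay a median of 31.4 kb apart, with an overlap at 2 of the 35 genes. Over the whole lists, 59 regions of NOD overlapped 59 of B6.

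Ranked by the smaller of both sums, Tsc22d1 came first, with 165.6 in NOD and 277.0 in B6. Tsc22d1, a leucine zipper protein induced by TGF-beta, had an intronic NOD domain 3.64 kb from a start and an intronic B6 domain 4.48 kb before another start. Fut9, the fucosyltransferase that makes the Lewis X epitope known as SSEA-1 on mouse ES cells, had 147.6 in NOD and 243.1 in B6. The NOD value came mainly from a region of 137.5 that lay 16.42 kb upstream, whose centre is shown above. The B6 value came mainly from a domain of 204.3 in an intron 138.67 kb downstream of the start. Zfp706 had 96.98 in NOD and 335.04 in B6.

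Gene models on chromosomes 12 and 13 were also marked in both strains. 5730507C01Rik had 513.96 over 9 NOD regions and 161.6 over 2 B6 regions. 1700030C10Rik had 416.31 over 8 NOD regions and 140.95 over 4 B6 regions. 2410141K09Rik had 900.55 over 9 NOD regions and 128.26 over 4 B6 regions. In the order named, 7 of 9, 4 of 8 and 6 of 9 NOD centres of these 3 gene models were mostly multicopy. The same held for 0 of 2, 3 of 4 and 2 of 4 B6 centres. Ptprg, a receptor tyrosine phosphatase, had 5 regions in each list, with scores of 14.7 to 58.0 in NOD and 9.96 to 30.2 in B6, so its place came from the number of regions.

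Which sum was larger depended on distance at some of these genes. Counting only regions within 50 kb of the start, the NOD minus B6 difference of Fut9 became 138 and that of 5730507C01Rik became -149, both opposite in sign to the values over all regions.

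Gene lists were compared next, by role. Over all genes 2.77% were high in NOD and 0.993% in B6, so in lists of this size a count of 0 high genes lies near the background. In the core and naive pluripotency list, 17 of 28 genes had a region and 1 was high. This was Zfp42, also known as Rex1, a marker of naive ES cells, with 461.3 over 3 NOD regions and none in B6. Its main region of 417.8 lay 18.88 kb upstream of the start. All other members had at most 89.8, the B6 sum of Klf5, a Krüppel-like factor of self-renewal. Dppa3, a maternal factor of naive cells, had 44.8 in NOD and 39.0 in B6. Prdm14, a repressor that guards the naive state, had 30.1 and 33.4. Nr5a2, a nuclear receptor, had 51.94 over 3 B6 regions alone, and Nanog, a core factor, had 18.5 in NOD alone. The remaining 11 members, Pou5f1, Sox2 and Esrrb among them, had no region in either list. Lists of strain differences cannot show whether a marker was present in both strains.

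Among genes of formative and primed pluripotency 10 of 18 had a region and none was high. Lef1, a mediator of Wnt signalling, had 126.9 in NOD, and Otx2, a driver of the formative state, had 45.04 in B6. Of 30 genes of the 2-cell stage and germline, 11 had a region and Crxos alone was high, 9.09% of those 11 in NOD. Stk31, a germline kinase, had 142.7 in NOD and 6.78 in B6, and Zscan4d, of the 2-cell gene family, had 111.1 in NOD alone.

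Lists for other cell types that a culture could hold contained no high gene, which at so few members with a region is near the background. Regions were assigned to 3 of 12 primitive endoderm genes, 7 of 12 trophoblast genes, 7 of 15 genes of early mesoderm and ectoderm, and 5 of 14 feeder fibroblast genes. According to the paper, the ES cells of its RNA comparison were grown without feeder cells. The largest sums in these lists were 122.68 in B6 at Tfap2c, which ES cells express as well, and 120.9 in NOD at Krt8, a keratin of trophoblast. Dab2, an endocytic adaptor of primitive endoderm, followed with 99.3 in NOD. The median sum over the members with a region ranged from 9.93 to 27.9 in these lists, against 15.7 and 15.4 over all genes of NOD and B6.

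In the signalling list of LIF, FGF, BMP and Wnt genes, 25 of 32 had a region, 13 in NOD and 18 in B6. None was high. The nearest was Fzd7, a Wnt receptor, with 199.8 over 3 B6 regions and none in NOD, just under the threshold. With the B6 scores scaled to the NOD total, its NOD minus B6 difference was -293, which is past the threshold in B6. Smad7, an inhibitor of TGF-beta family signalling, had 131.6 in B6 and 10.5 in NOD. Id3, a target of BMP signalling, had 72.9 in B6 alone. The largest NOD sum in the list was 29.5, at Skil, a repressor of SMAD transcription.

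Of 47 immune genes, 10 had a region in either list, and 4 of these were high in NOD (40.0%, against 2.77% of all genes). No member was high in B6, where 0.993% of all genes were, so the B6 count is at the background. Both counts depend on the choice of members. Nod1, a sensor of bacterial peptidoglycan that was not among them, had 222.4 in B6 and no NOD region. This list was partly taken from genes the study had singled out in the same cells and is not independent evidence of direction. Tlr4, the receptor for lipopolysaccharide, had 450.8 from 1 domain 74.29 kb from its start. Ly6e, an interferon-induced surface protein, had 336.4 from a domain at its promoter that also carried 628.5 H3K4me3 tags per 10000000 in NOD and none in the B6 H3K4me3 list. Tlr2, a receptor for bacterial lipoproteins, had 303.32 over 3 regions, led by a region of 277.3 in an ERVB2 element 30.98 kb upstream. H2-Eb1, a beta chain of MHC class II, had 202.3 from 1 region, just above the threshold. Aim2, a sensor of cytosolic DNA, had 85.9 over 2 B6 regions and none in NOD. Fcgr3, an Fc receptor, had 81.6 in NOD alone.

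Of 36 chromatin regulators, 18 had a region and none was high. Setdb1, the H3K9 methyltransferase that silences endogenous retroviruses in ES cells, had 193.4 in NOD from 1 intronic region. That region lay in an RLTR13B3 element whose words occurred a median of 72 times in the genome. Suz12, a subunit of Polycomb complex PRC2, had 132.5 in NOD, and Morc3 had 110.3 in NOD and 13.0 in B6.

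The high genes differed from the rest in where their regions lay. The highest region was intergenic in 68.9% of NOD high genes and 39.5% of NOD genes under 200. In B6 the difference was smaller, at 50.7% and 38.4%, and intronic shares were 46.7% and 47.9%. These classes are those of the region's centre. A centre at a promoter was listed for 2.39% of NOD high genes and 9.94% of NOD genes under 200, and for none of the B6 high genes and 6.56% of B6 genes under 200. By overlap the order was the opposite. Among genes with a RefSeq promoter, the highest region overlapped a promoter of the gene at 15.9% of 151 NOD high genes and 9.72% of the others, and at 20.4% of 49 B6 high genes and 6.89% of the others. High genes have wider regions, as at Dhrs7 and Scaf4, and the part of width in this overlap was not tested. Over all regions, intergenic sequence held 57.2% of the NOD score and 45.2% of the B6 score. Regions of high genes lay a median of 48.1 kb from the start in NOD and 42.8 kb in B6, and those of other genes 16.1 and 20.6 kb. Assignment to a gene is therefore less certain for high genes than for the rest. Counting only regions within 50 kb left 130 high genes in NOD.

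Repeats held 47.2% of the NOD score and 35.1% of the B6 score. The highest region lay in an ERVK element at 22.5% of NOD high genes and 10.3% of NOD genes under 200, and at 8.0% and 8.1% in B6. ERV1 elements held the highest region of 9.09% of NOD high genes and 3.11% of NOD genes under 200, and of 2.67% and 1.68% in B6. LINE elements held it at 7.66% and 4.25% in NOD, and at 14.7% and 4.03% in B6. Copy number went along with this: 20.3% of the regions of NOD high genes had mostly multicopy words at their centre (95% Wilson interval 17.1% to 23.9%), against 7.43% of the other NOD regions. In B6 the shares were 9.14% (5.78% to 14.1%) and 3.85%. Such intervals cover counting error only, and regions are not replicates of a strain. Using only regions with at least 50% single-copy words, the ratio of summed scores of NOD over B6 was 1.32.

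Motifs of 2 ES cell factors were counted in the central 200 bases of each region on both strands. The octamer ATGCAAAT, bound by Oct4, was found in 1.57% of all NOD and 1.51% of all B6 regions. In regions of high genes it was found in 1.49% of 538 NOD regions and in 0 of 186 B6 regions, for which the upper limit of the interval was 2.02%. The Esrrb-type motif TCAAGGTCA was found in 1.30% of NOD and 0.538% of B6 regions of high genes, against 0.948% and 1.07% of all regions. The intervals of high genes and of all regions overlapped for each motif.

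High genes were spread unevenly over chromosomes in B6. Chromosome 6 held 19 of the 75 B6 high genes (25.3%), 8 of the 20 genes with several B6 regions and 13.0% of the B6 score, while it held 6.19% of all genes and 9.10% of the B6 regions. It held 5 of the 209 NOD high genes and 3.12% of the NOD score, with a smaller share on chromosome 19 only. Magi1, Frmd4b, Akr1d1, Rpia and Etv6 were all on chromosome 6, as was the only group of at least 3 neighbouring high genes in B6, formed by Pde6h, Rerg and Eps8 with 773.7. Also on this chromosome was Nod1, with 222.4 in B6 and no NOD region, which was named here and above after its value was seen. In NOD the largest numbers of high genes were 17 on chromosome 8 and 17 on chromosome 13, with 16 on chromosome 1. Chromosomes 8 and 13 each held 8.13% of the NOD high genes, against 5.7% and 4.7% of all genes. Their shares of the NOD regions were 7.3% and 5.65%. Chromosome 1 held 7.66% of the NOD high genes, against 6.15% of all genes and 6.99% of the NOD regions. The share on chromosome 13 was not particular to NOD, as it held 9.33% of the B6 high genes, while chromosome 8 held 5.33% of them. Without chromosomes 6, 8 and 11, which stood out by earlier results, 46 genes were high in B6. The part of chromosome 6 in the B6 results above was not tested.

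**Figure D4:**
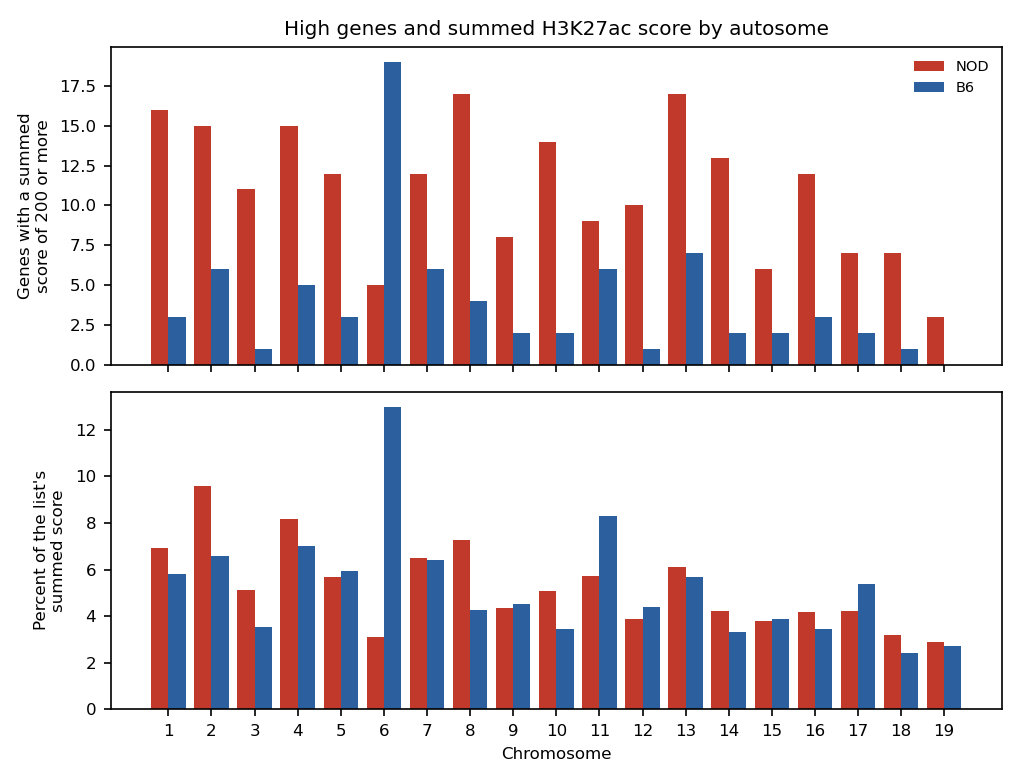
Number of genes with a summed score of at least 200 (top) and percent of each list's summed score (bottom) on chromosomes 1 to 19, NOD in red and B6 in blue. Chromosome 6 stands apart with 19 B6 and 5 NOD high genes, and with 13.0% of the B6 against 3.12% of the NOD score.

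H3K4me3, a mark of active promoters, was read in the same strains and was not used to choose the genes. A NOD-enriched H3K4me3 region overlapped an H3K27ac region at 123 of the 209 NOD high genes, or 58.9% (52.1% to 65.3%). The share among NOD genes under 200 was 9.09% (8.27% to 9.98%). In B6 a B6-enriched H3K4me3 region was present at 31 of 75 high genes, or 41.3% (30.9% to 52.6%), and at 5.02% (4.40% to 5.72%) of genes under 200. H3K4me3 enriched in the other strain was found at 7 NOD high genes, or 3.35% (1.63% to 6.75%), against 0.731% of NOD genes under 200. In B6 it was found at 2 high genes, or 2.67% (0.734% to 9.21%), against 2.42% of genes under 200. Wider regions have more room for an overlap, and so do genes with more regions. Among high genes with 1 region, the same-strain share was 54.2% of 72 in NOD (42.7% to 65.2%) and 45.7% of 35 in B6 (30.5% to 61.8%). Other genes with 1 region were not counted apart. Among genes whose highest region was under 5 kb, the NOD shares were 42.7% of 75 high genes and 7.62% of the others. The B6 shares were 57.1% of 14 high genes (32.6% to 78.6%) and 4.0% of the others. Among genes whose highest region was 5 kb or wider, which held most high genes, they were 67.9% of 134 high genes and 25.9% of the others in NOD, and 37.7% of 61 high genes (26.6% to 50.3%) and 59 of the 393 others (11.8% to 18.9%) in B6.

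The H3K4me3 value varied widely among the leading genes. Smarca5-ps carried 1443.5 and 928.7 NOD tags per 10000000 tags at its 2 domains, and the strongest Gm14296 domain carried 902.8. Of the 16 Pcmtd1 regions, 1 carried 86.2 and another 17.1, and the other 14 overlapped no NOD-enriched H3K4me3 region. At Magi1 2 of 20 regions overlapped B6-enriched H3K4me3, with 66.3 and 18.9. Gm15698 carried 237.3 in B6, whereas Dhrs7, Hsd17b3 and Acacb overlapped no region of either strain-enriched H3K4me3 list. Such lists leave out H3K4me3 shared by both strains, so a missing overlap does not show that the mark was absent.

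**Figure D5:**
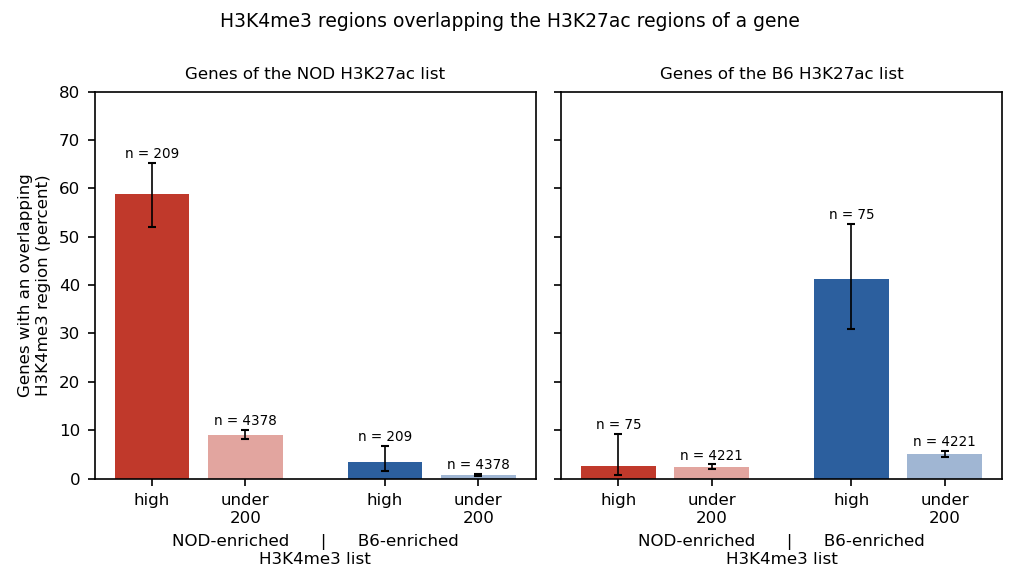
Percent of genes with an H3K4me3 region overlapping at least 1 of their H3K27ac regions, for genes of the NOD list (left panel) and of the B6 list (right panel), split into high genes and genes under 200. Bars in red are for NOD-enriched and in blue for B6-enriched H3K4me3, error bars are 95% Wilson intervals for counting error, and n is the number of genes. The same-strain share is 58.9% against 9.09% in NOD and 41.3% against 5.02% in B6.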

How the data were processed

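Chromatin immunoprecipitation sequencing of H3K27ac and H3K4me3 was carried out in ES cells of NOD and B6 mice, with 1 library for each strain and mark. According to the methods of the study, the authors mapped reads to mm10 with bowtie2 and used HOMER. The labels list mm9, CASAVA 1.8.2, STAR 2.2.0c and HOMER with no role. The header of the annotated lists names mm10, and of 11508 regions whose promoter transcript was found in GRCm38.p6 RefSeq, 96.32% lay at the listed distance within 100 bp.

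The deposited H3K27ac score and the deposited slope score in the next column came from the HOMER super enhancer step, each strain being scored against the other. Regions that scored below 0 numbered 17 in NOD and 7 in B6. Regions with a slope of at least 1, or with their size in that column, and a score above 0 were called super enhancers. The deposited H3K4me3 signal is a normalized tag count per 10000000 tags, per the file headers.

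Scores were summed per gene over chromosomes 1 to 19 with pandas 2.3.3 and numpy 2.4.6 in Python 3.11.15, and intervals came from scipy 1.17.1. Copy number was counted for 9 words of 32 bases, 20 bp apart, in the central 200 bases of a region, over the whole genome. A centre was called multicopy where under 50% of its words were single copy. The stretch nearest to a gene used curated RefSeq starts. Marks overlapped at 1 bp or more. The scripts were tested on simulated data.

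The members and gene lists were chosen with earlier results of these data known. Named genes were, per strain, the 10 highest sums, the 6 genes with most regions, the 6 with most regions among genes absent from the other list, up to 3 per gene list, and those next to the threshold, and over both strains the 10 with the highest smaller sum; a few of these are not reported here. Alternatives changed which regions and chromosomes counted, the gene of a region, the scale and the thresholds. No test was run, as there were no replicates.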

Additional observations from a re-analysis of the deposited data

Results flagged for a closer look

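Regions on the sex chromosomes were left out of all comparisons above. On chromosome X, 5 genes of the NOD list reached a summed score of 200 and none of the B6 list did, and they are given as values from data not otherwise used. The NOD count was 2.98% of 168 genes, below the 4.56% of autosomal genes of the NOD list. The B6 count was 0 of 81 genes, near the 1.75% of autosomal genes of the B6 list. The 5 NOD genes were G530011O06Rik with 847 from 1 region, Tmem47 with 363, Tsix with 314.42, Diaph2 with 304.47 and Pnma5 with 279. The NOD list held 208 regions on chromosome X with a summed score of 7404.3, and the B6 list 92 with 1444.8. The difference has no replicates and was not tested.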

How the results depend on the processing

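High genes in NOD numbered 130 within 50 kb of the start, 474 at a threshold of 100 and 51 at a threshold of 400. High genes in B6 numbered 46 without chromosomes 6, 8 and 11, 156 after the B6 scores were scaled to the NOD total, 256 at 100 and 9 at 400. Genes with several NOD regions numbered 8 with scores of at least 20, 2 within 50 kb, 2 among super enhancers, 237 at 3 regions, 9 at 8 regions and 13 with single-copy centres only, a choice made after the data were seen. Those with several B6 regions numbered 2 with scores of at least 20, 2 within 50 kb, 1 among super enhancers, 10 without the 3 chromosomes, 35 with protein-coding RefSeq genes, 212 at 3 regions and 1 at 8 regions. Genes high or with several regions in both strains numbered 0 with scores of at least 20, 0 within 50 kb, 0 among super enhancers, 3 after scaling, 24 at the lower and 0 at the higher thresholds. The ratio of summed scores was 1.68 with scores of at least 20, 1.94 among super enhancers, 1.66 without the 3 chromosomes, 1.32 with single-copy centres and 1 after scaling, by construction.

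The share of score in NOD high genes was 44.1% with scores of at least 20, 31.0% within 50 kb, 62.7% among super enhancers, 55.9% at 100, 16.4% at 400 and 32.3% with single-copy centres. In B6 it was 23.8% with scores of at least 20, 15.2% within 50 kb, 41.0% among super enhancers, 13.7% without the 3 chromosomes, 26.9% after scaling, 35.1% at 100 and 4.31% at 400. The share of score in repeats was 41.2% within 50 kb, 52.9% among super enhancers and 40.5% with single-copy centres in NOD, and 40.8% among super enhancers and 31.1% with single-copy centres in B6. The same-strain H3K4me3 share of high genes was 45.8% at 100, 78.4% at 400 and 50.2% with at least 50% of the H3K4me3 region covered in NOD, and 29.7% at 100 and 66.7% at 400 in B6.

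The NOD minus B6 difference in summed score changed sign at 4 of 102 named genes after scaling, at 8 of the 93 with a region within 50 kb and at 2 of the 61 with a region left without the highest. With B6 scaled it became -35.6 at 4933406J10Rik, -8.95 at Bmpr1a, -12.5 at Dppa3 and -1.13 at Gm572. Within 50 kb it became -149 at 5730507C01Rik, -8.22 at Bmpr1a, -14.4 at Col1a2, 138 at Fut9, -23.4 at Gm572, -6.38 at Hdac2, 5.30 at Prdm14 and -9.66 at Zfp369. Without the highest region of each list it became -42.7 at 4933406J10Rik and 33.3 at Tsc22d1. The causes were not tested. With 1 library per strain, leaving out a replicate was not possible, and no paired analysis was possible because no strain had more than 1 library.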
